A study of Mus musculus with 9 samples.

Results

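Sterol and fatty acid synthesis was read as a set of 29 listed mouse genes. They were chosen by their known roles, with earlier results of these data known. Each gene was taken from the array probe set that carries its symbol alone, the brightest one over the 9 arrays where there were several. Of the 29 genes 28 were measured, among 19937 genes in all, and Acat2 was not analysed here. The genes fall into 6 measured enzymes of the mevalonate and isoprenoid steps, 11 of squalene and the sterol rings, 5 regulators of SREBP, 1 sterol carrier (Stard4) and 5 enzymes of fatty acid synthesis.

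The study sorted 3 cell populations from wild-type C57BL/6 mice and ran 3 arrays of each. Ly6C-high microglia, whose cell type the labels write as MgSCs, came from perfused and digested brain, as did Ly6C-low microglia, labelled bulk microglia. Spleen monocytes, for which the labels give no Ly6C level, were the comparison population from outside the brain. Age, sex and the number of animals behind an array are not stated in the labels, and p-values measure the spread between these arrays, which may be technical.

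Cells make cholesterol from acetyl-CoA through mevalonate, farnesyl diphosphate, squalene and lanosterol, and they make fatty acids from acetyl-CoA through malonyl-CoA, palmitate and its elongated and desaturated products. Both routes are switched on by the SREBP transcription factors, which Scap carries to the Golgi for cutting when sterols are low and which Insig proteins hold back in the endoplasmic reticulum when sterols are high. In the brain nearly all cholesterol is made locally, and microglia can take up and export cholesterol through lipoproteins.

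Across the 3 populations the sterol enzymes and the fatty acid enzymes did not move as 1 block. Scd1, a stearoyl-CoA desaturase, was 17.3-fold lower in Ly6C-high microglia and 22.1-fold lower in Ly6C-low microglia than in monocytes, while its relative Scd2 was highest in Ly6C-low microglia. The Scd1 folds are those of the deposited values and may be lower bounds, since no background signal was used here and the microglia arrays lay near or under the median gene mean of 6.13. The same limit applies to any other gene whose lower population lay near or under that median. Fasn, the fatty acid synthase, and Scap were lower in Ly6C-high microglia than in either other population, and Stard4, a cytosolic cholesterol carrier, was higher there than in either. Srebf2, which encodes the SREBP that drives sterol genes, and the lanosterol demethylase Cyp51 were lower in both brain populations than in monocytes. For Srebf2 this holds for the probe set used, while another, which carries several symbols, overlapped between Ly6C-low microglia and monocytes. Of the 28 genes 15 passed the test in at least 1 comparison, 13 in none, and Stard4 and Fasn in all 3. How many of all genes passed in at least 1 comparison, or in all 3, was not counted. Each comparison alone had 2894 to 4290 passing genes. The Stard4 passes against monocytes were lost in 10 of 18 alternative analyses for Ly6C-high microglia and in 5 for Ly6C-low microglia. The Fasn pass in Ly6C-low microglia against monocytes was lost in 6 of the 18.

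Values are log2 intensities as the authors deposited them, so differences are log2 fold changes, and each probe set is compared only with itself across arrays. Differences are tested population minus its comparison population, with their standard error (SE). A gene is called, or said to be higher or lower by the test, where the Benjamini-Hochberg adjusted p from limma over all 19937 genes was under 0.05. The arrays of Ly6C-high microglia were less alike than the others. The median SD of the 28 genes was 0.30 for the Ly6C-high arrays, 0.21 for the Ly6C-low arrays and 0.15 for the monocyte arrays. Ly6C-high replicate 1 also had a narrower spread of values over all probe sets (interquartile range 2.24, against 2.62 to 2.91 on the other arrays). Marker lists set beside the labels showed what else moved with the groups. The 10 brain endothelium genes averaged 10.48 to 11.04 on the Ly6C-high arrays, 5.99 to 7.49 on the Ly6C-low arrays and 5.83 to 5.96 on the monocyte arrays, and all 10 were higher in Ly6C-high than in Ly6C-low microglia. The 9 measured homeostatic microglia genes averaged 8.09 to 8.96 on the Ly6C-high arrays, 11.04 to 11.53 on the Ly6C-low arrays and 6.86 to 6.94 on the monocyte arrays. Monocyte genes were uneven among the Ly6C-high arrays, with means of 7.04, 9.47 and 6.37 in replicates 1, 2 and 3, and so were cell division genes, at 6.46, 8.06 and 6.12. The 8 neutrophil genes averaged 5.72 to 6.93 on the Ly6C-high arrays, 6.69, 6.97 and 9.61 on Ly6C-low replicates 1, 2 and 3 and 10.17 to 10.80 on the monocyte arrays. Ttr, a choroid plexus gene, read 12.36 to 12.96 on the Ly6C-high arrays, 11.88 to 13.02 on the Ly6C-low arrays and 4.81 to 5.60 on the monocyte arrays. Of the 7 measured choroid plexus genes, Ttr was the only one called against monocytes in either brain population, and the other 6 were not called. All 7 estimates lay above 0 against monocytes in both brain populations. The 7 genes averaged 7.50, 6.60 and 6.33 on Ly6C-low replicates 1, 2 and 3. Their means were 6.33 to 6.68 on the Ly6C-high arrays and 5.10 to 5.24 on the monocyte arrays. In bulk RNA fewer cells of a type and less RNA per cell cannot be told apart, and the part of these markers in the differences below was not tested.

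**Figure D1:**
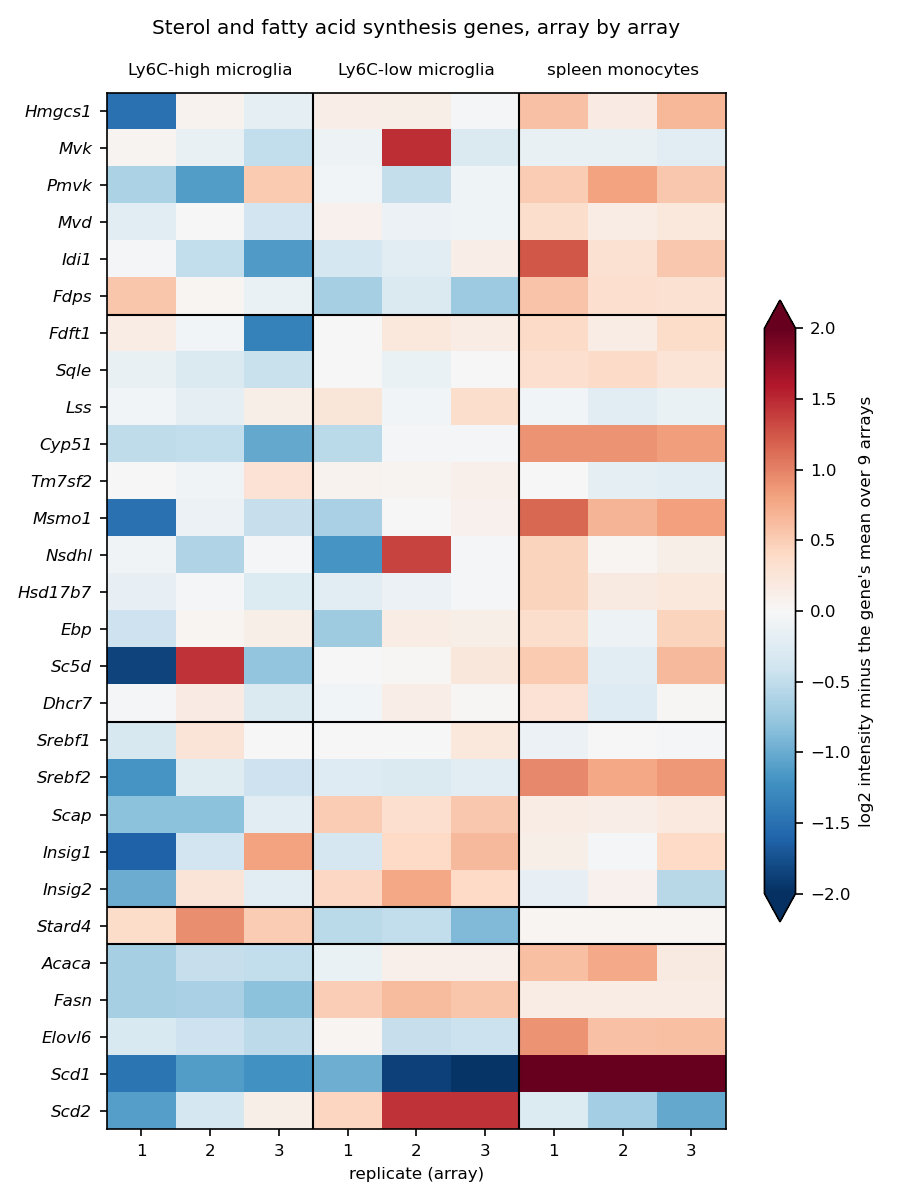
Log2 intensity of each of the 28 measured genes (rows, grouped by role from mevalonate enzymes at the top to fatty acid enzymes at the bottom) on each of the 9 arrays (columns), as the difference from the gene's own mean over the 9 arrays; colours stop at 2 in either direction. Scd1 is dark red on all 3 monocyte arrays, Scd2 is reddest on Ly6C-low replicates 2 and 3, and Fasn and Scap are blue on all 3 Ly6C-high arrays.

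Promoter sequence was set beside these values because SREBP proteins are known to act with the CCAAT-binding factor NF-Y and with Sp1 at short promoter sites. RefSeq windows of 300 bases (250 before to 50 from each annotated start, build GRCm38.p6) were available for 23 of the 29 listed genes, as 31 windows, some of which overlap within a gene. The sterol regulatory element core was searched as TCACNCCAC, the CCAAT box as CCAAT, the E-box as CACGTG and the GC box as GGGCGG, on both strands. The element core stood in 1 of the 31 windows (3.2%), that of Hmgcs1, and in 1.2% of all 32851 promoter windows. CCAAT stood in 20 of the 31 windows (64.5%) and in 37.4% of all windows, GGGCGG in 23 (74.2%) against 35.7%, and CACGTG in 6 (19.4%) against 7.2%. These are counts of letters and not of binding, and a window without a match says only that these letters are not in it.

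4 windows are shown 5′ to 3′ along the gene, with the element core and CCAAT matches (or their reverse complements) in capitals: Hmgcs1 as the sole window with the core, Cyp51 and Msmo1 as the sterol enzymes with the widest gap to monocytes, and Fasn as a fatty acid gene that was lower in Ly6C-high microglia than in both other populations under all 18 alternatives. The Hmgcs1 window (chr13:119690101-119690400, plus strand) holds the core TCACCCCAC at positions -137 to -129 from the start and 4 CCAAT matches. The Cyp51 window (chr5:4104648-4104947, minus strand) holds 1 CCAAT match at -29 to -25. The Msmo1 window (chr8:64733529-64733828, minus strand) holds 3, and the Fasn window (chr11:120824498-120824797, minus strand) also 3, of which the pair on opposite strands overlap. In these windows no core match overlaps a CCAAT match.
Hmgcs1: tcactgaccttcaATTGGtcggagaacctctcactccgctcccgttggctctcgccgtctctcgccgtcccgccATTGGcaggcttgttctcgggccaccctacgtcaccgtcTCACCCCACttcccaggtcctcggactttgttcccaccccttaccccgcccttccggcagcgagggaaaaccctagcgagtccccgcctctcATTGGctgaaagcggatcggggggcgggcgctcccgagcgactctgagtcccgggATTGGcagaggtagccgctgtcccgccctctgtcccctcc
Cyp51: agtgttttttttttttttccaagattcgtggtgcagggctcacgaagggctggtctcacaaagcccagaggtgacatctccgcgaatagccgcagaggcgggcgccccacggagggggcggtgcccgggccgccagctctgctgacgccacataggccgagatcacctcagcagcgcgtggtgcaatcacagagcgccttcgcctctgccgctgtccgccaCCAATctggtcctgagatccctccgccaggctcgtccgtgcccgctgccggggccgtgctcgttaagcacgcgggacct
Msmo1: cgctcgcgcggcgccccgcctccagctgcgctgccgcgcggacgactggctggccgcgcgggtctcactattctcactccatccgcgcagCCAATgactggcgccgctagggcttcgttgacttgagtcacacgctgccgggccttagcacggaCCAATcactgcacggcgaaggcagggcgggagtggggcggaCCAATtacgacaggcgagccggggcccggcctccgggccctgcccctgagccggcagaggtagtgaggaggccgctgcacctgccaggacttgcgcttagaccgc
Fasn: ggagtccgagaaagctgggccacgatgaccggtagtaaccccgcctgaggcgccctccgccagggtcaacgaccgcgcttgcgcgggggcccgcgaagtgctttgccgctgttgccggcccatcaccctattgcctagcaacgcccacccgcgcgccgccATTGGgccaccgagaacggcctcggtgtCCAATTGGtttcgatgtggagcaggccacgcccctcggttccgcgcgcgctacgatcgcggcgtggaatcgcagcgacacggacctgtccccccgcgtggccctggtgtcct

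Setting the Ly6C-high population against bulk microglia asks how the 2 brain populations differ. Of the 28 genes 2 were higher in Ly6C-high microglia (7.1%), Stard4 and Fdps, where 4.49% of all genes were, and 4 were lower (14.3%), Fasn, Scap, Scd2 and Acaca, where 11% of all genes were. The median difference of the 28 genes was -0.32 and that of all genes 0.05. Among the 9969 genes whose mean over the 9 arrays was at or above the median gene, 19.5% were lower, and the same 4 genes were 4 of the 25 listed genes there. The 4 lower genes were 2 without Ly6C-high replicate 1, Ly6C-low replicate 2 or Ly6C-low replicate 3, and the 2 higher genes were 1 without any 1 array other than Ly6C-high replicate 3 or Ly6C-low replicate 2. The endothelial and homeostatic microglia markers moved with this comparison, and their part in it was not tested. Higher calls made up 40.8% of all calls of this comparison under quantile normalization and 29.1% without it.

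Setting Ly6C-high microglia against the spleen cells asks how far they lie from a myeloid population outside the brain. Of the 28 genes 12 were lower in Ly6C-high microglia (42.9%), where 14.6% of all genes were, and 1, Stard4, was higher (3.6%), where 6.88% of all genes were. The lower genes were Mvd, Idi1, Sqle, Cyp51, Msmo1, Hsd17b7, Srebf2, Scap, Acaca, Fasn, Elovl6 and Scd1. The median difference was -0.60 for the 28 genes and 0.09 for all genes. Among the 9969 brighter genes 25.9% were lower, and 11 of the 25 listed genes there. The count of 12 was 8 under quantile normalization and 8 without monocyte replicate 1. Higher calls made up 45.1% of all its calls under quantile normalization and 32.0% without it.

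The third comparison sets bulk microglia against the same monocytes. Of the 28 genes 6 were lower in Ly6C-low microglia (21.4%), where 7.71% of all genes were: Fdps, Cyp51, Srebf2, Stard4, Elovl6 and Scd1. Fasn and Scd2 were higher (7.1%), where 6.80% of all genes were. The median difference was -0.32 for the 28 genes and 0.05 for all genes, and of the 9969 brighter genes 12.6% were lower. The count of 6 lower genes was 13 with array weights and 10 when only these 6 arrays were fitted. Both monocyte comparisons share the monocyte arrays, and both Ly6C-high comparisons share the Ly6C-high arrays, so their counts are not independent of each other.

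**Figure D2:**
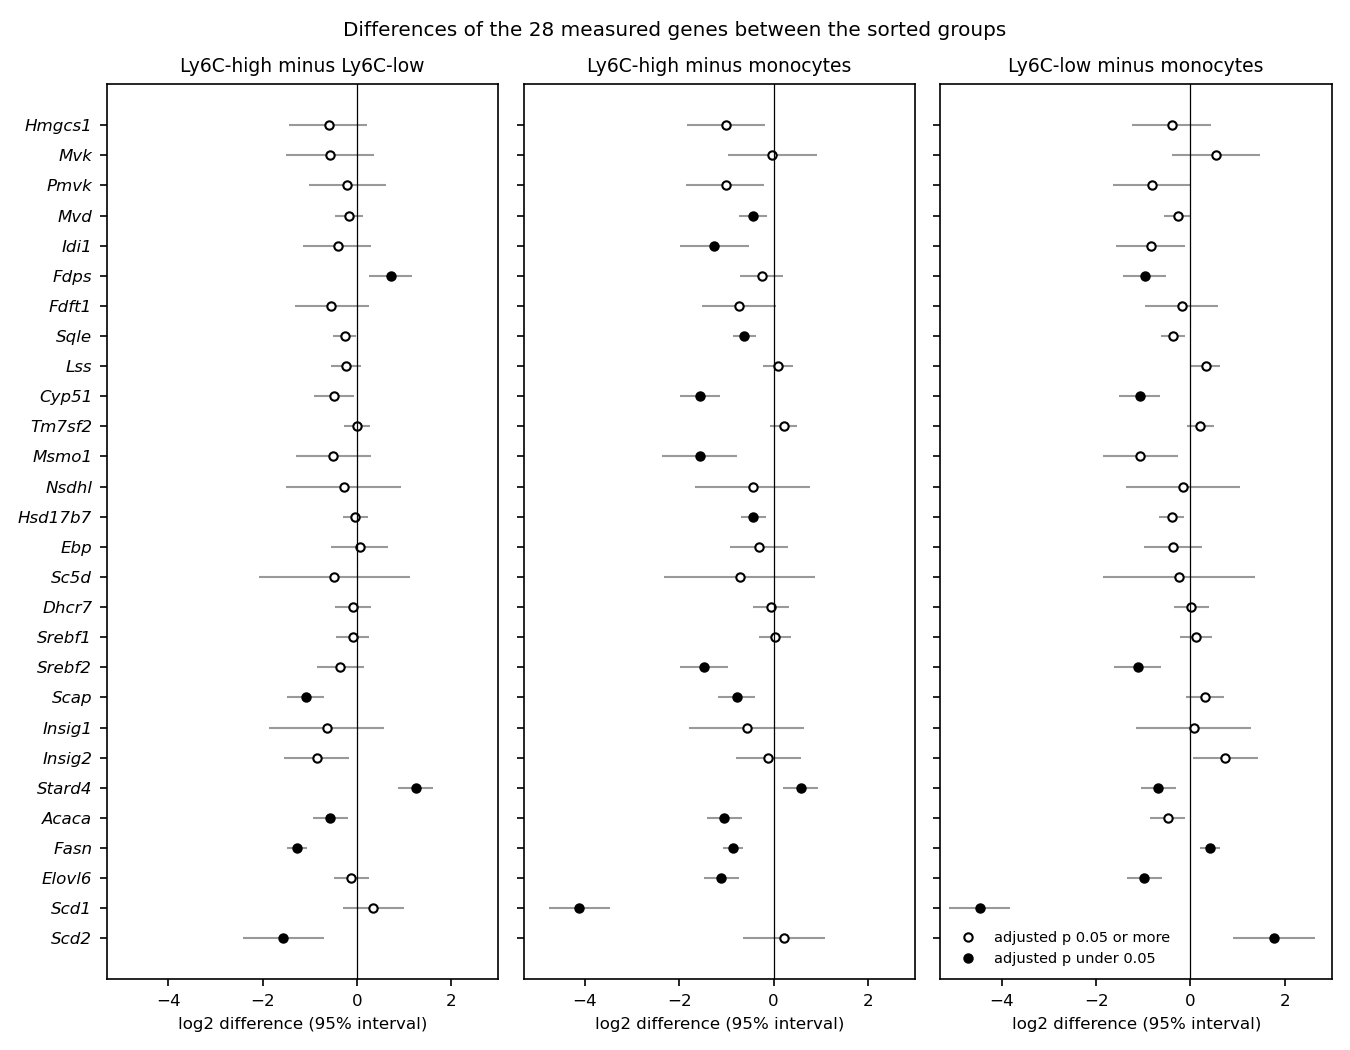
Log2 difference of each measured gene (rows, in the same order) in the 3 comparisons (panels), with 95% intervals from limma as lines; filled points have an adjusted p under 0.05 and open points do not. The filled points number 6, 13 and 8 in the panels from left to right, and Scd1 lies at -4.12 and -4.47 in both panels against monocytes.

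The enzymes that build isoprenoid units were lower in Ly6C-high microglia than in monocytes at 2 of 6 genes, where 14.6% of all genes and 25.9% of the brighter genes were, and in Ly6C-low microglia than in monocytes at 1 of 6, where 7.71% of all genes were. Idi1, the isopentenyl diphosphate isomerase, read 6.55, 6.09 and 5.45 in Ly6C-high microglia, 6.24, 6.38 and 6.72 in Ly6C-low microglia and 7.83, 6.89 and 7.13 in monocytes. All 6 microglia arrays lay below all 3 monocyte arrays. The difference passed for Ly6C-high microglia (-1.26 ± 0.32 SE, 2.39-fold lower, adjusted p = 0.0252) and not for Ly6C-low microglia (-0.84 ± 0.32, adjusted p = 0.133). A second Idi1 probe set gave -1.15 and -1.57, with both past the threshold (adjusted p = 0.0294 and 0.0096). The call for Ly6C-high microglia ended without Ly6C-high replicate 3 (adjusted p = 0.0564), without monocyte replicate 1 (0.0844) and without monocyte replicate 3 (0.0555), under quantile normalization (0.0564) and in a fit of the 6 compared arrays alone (0.0644).

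Fdps, the farnesyl diphosphate synthase whose product feeds sterols and protein prenylation, went its own way. It read 7.09, 6.58 and 6.41 in Ly6C-high microglia, 5.87, 6.25 and 5.81 in Ly6C-low microglia and 7.11, 6.88 and 6.85 in monocytes. Ly6C-low microglia were thus the low population, 1.64-fold below Ly6C-high microglia (Ly6C-high minus Ly6C-low 0.72 ± 0.20, adjusted p = 0.0428) and 1.96-fold below monocytes (-0.97 ± 0.20, adjusted p = 0.0118). Ly6C-high microglia and monocytes overlapped (-0.25 ± 0.20, 95% interval -0.71 to 0.20). The first of these calls ended in 9 of 18 alternatives, among them leaving out any 1 array other than Ly6C-high replicate 3 or Ly6C-low replicate 2 (adjusted p = 0.0513 to 0.153). The second ended without Ly6C-low replicate 3 (0.0512) and without monocyte replicate 1 (0.0551).

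Mvd, the mevalonate diphosphate decarboxylase, was slightly lower in Ly6C-high microglia than in monocytes, at 6.40, 6.62 and 6.24 against 6.98, 6.77 and 6.83 (-0.44 ± 0.13, adjusted p = 0.0425). This call was lost in 12 of 18 alternatives, among them leaving out any 1 array other than Ly6C-high replicate 2 or Ly6C-low replicate 1 (adjusted p = 0.0653 to 0.144). Hmgcs1, the HMG-CoA synthase at the entry to the pathway, read 5.35, 6.92 and 6.67 in Ly6C-high microglia, 6.98, 6.96 and 6.81 in Ly6C-low microglia and 7.43, 7.01 and 7.51 in monocytes. No Hmgcs1 difference passed, the widest being -1.0 ± 0.36 in Ly6C-high microglia against monocytes (95% interval -1.83 to -0.18, adjusted p = 0.0817), with Ly6C-high replicate 1 more than 1 log2 unit under its partners. Pmvk, the phosphomevalonate kinase, ranged from 5.23 to 6.86 in Ly6C-high microglia, from 5.87 to 6.28 in Ly6C-low microglia and from 6.85 to 7.14 in monocytes, also with no call. Mvk, the mevalonate kinase, stood apart on 1 array, at 8.30 in Ly6C-low replicate 2 and 6.33 to 6.88 on the other 8 arrays.

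The sterol ring enzymes were led by Cyp51, which removes a methyl group from lanosterol. Cyp51 (probe set 10527920) read 6.71, 6.72 and 6.19 in Ly6C-high microglia, 6.68, 7.19 and 7.19 in Ly6C-low microglia and 8.12, 8.12 and 8.05 in monocytes. Every microglia array lay below every monocyte array, and the microglia populations overlapped. The gene was 2.95-fold lower in Ly6C-high microglia (-1.56 ± 0.19, adjusted p = 7.70e-04) and 2.11-fold lower in Ly6C-low microglia (-1.08 ± 0.19, adjusted p = 0.0056) than in monocytes, and both calls held under all 18 alternatives. Between the microglia populations it did not pass (-0.48 ± 0.19, 95% interval -0.91 to -0.05, adjusted p = 0.134).

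Msmo1, the methylsterol oxidase that acts after Cyp51, had the same order of means. It read 5.86, 7.23 and 6.88 in Ly6C-high microglia, 6.70, 7.34 and 7.44 in Ly6C-low microglia and 8.49, 8.02 and 8.16 in monocytes, again with no overlap between microglia and monocyte arrays. Ly6C-high microglia were 2.97-fold lower than monocytes (-1.57 ± 0.35, adjusted p = 0.0143), a call that ended without monocyte replicate 1 (0.0584). Ly6C-low microglia did not pass (-1.07 ± 0.35, adjusted p = 0.0817), although the difference was called in 4 of 18 alternatives.

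Sqle, the squalene epoxidase and a rate-limiting enzyme of the pathway, was lower in Ly6C-high microglia than in monocytes by a small and steady amount. It read 6.19, 6.05 and 5.89 in Ly6C-high microglia, 6.34, 6.21 and 6.34 in Ly6C-low microglia and 6.68, 6.72 and 6.61 in monocytes. No array of one population lay within the range of another. Ly6C-high microglia against monocytes gave -0.63 ± 0.11 (1.54-fold lower, adjusted p = 0.0048), which held under all 18 alternatives, and Ly6C-low microglia against monocytes -0.37 ± 0.11 (adjusted p = 0.0559). Hsd17b7, a sterol ketoreductase, read 6.61, 6.76 and 6.51 in Ly6C-high microglia against 7.23, 6.96 and 6.99 in monocytes (-0.43 ± 0.12, adjusted p = 0.0327). This call was lost in 11 of 18 alternatives, among them leaving out any 1 array other than Ly6C-high replicate 2 or Ly6C-low replicate 1 (adjusted p = 0.0523 to 0.121).

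The other 7 ring enzymes passed in no comparison. Lss, the lanosterol synthase, lay between 5.09 and 5.66 over the 9 arrays. Tm7sf2, a sterol reductase, lay between 5.90 and 6.41, and Dhcr7, the last enzyme of one branch to cholesterol, between 6.82 and 7.40, with differences no larger than 0.21 in size for either gene. Ebp, the sterol isomerase, ranged from 6.39 to 7.54. Fdft1, the squalene synthase, was 7.51 or more on 8 arrays and 6.21 in Ly6C-high replicate 3, and its second probe set had the opposite sign between the microglia populations (0.30, against -0.54 for the probe set used), with neither past the threshold.

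Sc5d and Nsdhl varied widely within a population. Sc5d, the lathosterol desaturase, read 5.23, 8.53 and 6.29 in Ly6C-high microglia, which spans its 6.87 to 7.74 on the other 6 arrays. Nsdhl, a sterol dehydrogenase, read 5.94, 8.47 and 7.09 in Ly6C-low microglia, which spans its 6.52 to 7.57 on the other 6 arrays. The 95% intervals of their differences reached from -2.33 to 1.36 for Sc5d and from -1.66 to 1.05 for Nsdhl. Without Ly6C-high replicate 2, Sc5d was called lower in Ly6C-high microglia than in Ly6C-low microglia (-1.40, adjusted p = 0.0286, against -0.48 with all arrays) and than in monocytes (-1.65, adjusted p = 0.0117, against -0.72 with all arrays).

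Among the regulators, Scap and Srebf2 differed and the others did not pass. Scap (probe set 10589511) read 7.21, 7.21 and 7.83 in Ly6C-high microglia, 8.54, 8.37 and 8.58 in Ly6C-low microglia and 8.19, 8.17 and 8.23 in monocytes. All Ly6C-high arrays lay below the arrays of both other populations. Scap was 2.12-fold lower in Ly6C-high than in Ly6C-low microglia (-1.08 ± 0.17, adjusted p = 0.0033, kept under all 18 alternatives) and 1.72-fold lower than in monocytes (-0.78 ± 0.17, adjusted p = 0.0140). The difference from monocytes was -0.43 and not called under quantile normalization (adjusted p = 0.134), the one alternative of the 18 that ended it.

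Srebf2 (probe set 10425695) read 6.80, 7.75 and 7.58 in Ly6C-high microglia, 7.73, 7.69 and 7.77 in Ly6C-low microglia and 8.94, 8.76 and 8.86 in monocytes. The monocyte arrays all lay above all 6 microglia arrays, with Ly6C-high replicate 1 the lowest. The differences from monocytes were -1.47 ± 0.22 in Ly6C-high microglia (2.77-fold lower, adjusted p = 0.0024) and -1.12 ± 0.22 in Ly6C-low microglia (2.18-fold lower, adjusted p = 0.0099), both called under all 18 alternatives. The microglia populations overlapped (-0.35 ± 0.22, 95% interval -0.85 to 0.16). Another probe set carries Srebf2 among several symbols and was neither used nor tested. It read 7.03, 7.92 and 7.83 in Ly6C-high microglia, 7.80, 8.53 and 8.54 in Ly6C-low microglia and 8.20, 8.51 and 8.20 in monocytes. There the Ly6C-low and monocyte arrays overlapped, and the Ly6C-high arrays lay below the monocyte arrays.

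Srebf1, which encodes the SREBP forms tied to fatty acid genes, was nearly flat, between 6.85 and 7.42 over the 9 arrays. Its 3 differences ran from -0.09 to 0.12, and their 95% intervals from -0.44 to 0.46. Insig1, itself a known SREBP target that holds Scap back, read 7.82, 9.06 and 10.24 in Ly6C-high microglia, 9.11, 9.84 and 10.09 in Ly6C-low microglia and 9.56, 9.42 and 9.84 in monocytes. The Ly6C-high arrays alone spanned more than 2 log2 units, and no Insig1 difference passed (lowest adjusted p = 0.419). Insig2, its relative, read 5.47, 6.71 and 6.24 in Ly6C-high microglia, 6.87, 7.24 and 6.86 in Ly6C-low microglia and 6.30, 6.55 and 5.90 in monocytes. Ly6C-low microglia were the highest with no overlap, but neither difference passed (Ly6C-high minus Ly6C-low -0.85 ± 0.30, adjusted p = 0.103, and Ly6C-low minus monocytes 0.74 ± 0.30, adjusted p = 0.166).

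Stard4, which moves cholesterol between membranes and to the endoplasmic reticulum, ran opposite to most of the list in both Ly6C-high comparisons. In Ly6C-low microglia against monocytes it was among the 18 of 28 estimates below 0. Stard4 (probe set 10458033) read 7.19, 7.76 and 7.34 in Ly6C-high microglia, 6.28, 6.33 and 5.94 in Ly6C-low microglia and 6.86 on each of the 3 monocyte arrays to 2 decimals. No 2 populations overlapped, with Ly6C-high microglia at the top and Ly6C-low microglia at the bottom. Ly6C-high exceeded Ly6C-low microglia 2.37-fold (1.25 ± 0.16, adjusted p = 0.0014), and this held under all 18 alternatives. It exceeded monocytes by 0.57 ± 0.16 (1.49-fold, adjusted p = 0.0401), a call lost in 10 of 18 alternatives, among them leaving out any 1 array other than Ly6C-high replicate 1 or Ly6C-low replicate 3 (adjusted p = 0.0552 to 0.109). Ly6C-low microglia were 1.60-fold below monocytes (-0.68 ± 0.16, adjusted p = 0.0267), a call lost without Ly6C-low replicate 1 (0.0551) or 3 (0.0952) and without any 1 monocyte array (0.0762 to 0.0875).

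Fatty acid synthesis held the widest differences. Scd1 (probe set 10467979), which introduces the double bond of oleate, read 5.75, 6.09 and 6.00 in Ly6C-high microglia, 6.23, 5.33 and 5.24 in Ly6C-low microglia and 9.67, 10.41 and 10.12 in monocytes. The microglia arrays all lay under the monocyte arrays by more than 3 log2 units and overlapped each other. The difference from monocytes was -4.12 ± 0.28 in Ly6C-high microglia (adjusted p = 4.06e-05) and -4.47 ± 0.28 in Ly6C-low microglia (adjusted p = 2.56e-05), and both held under all 18 alternatives. Between the microglia populations it was 0.35 ± 0.28 (95% interval -0.30 to 1.00).

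Scd2 (probe set 10463355), the desaturase known as the main one of brain, had another order. It read 7.11, 7.87 and 8.33 in Ly6C-high microglia, 8.65, 9.67 and 9.66 in Ly6C-low microglia and 7.95, 7.54 and 7.19 in monocytes. Ly6C-low microglia stood above both others with no overlap, whereas Ly6C-high microglia and monocytes overlapped (0.21 ± 0.38, 95% interval -0.66 to 1.08). Ly6C-high microglia were 2.95-fold below Ly6C-low microglia (-1.56 ± 0.38, adjusted p = 0.0252), and Ly6C-low microglia 3.40-fold above monocytes (1.77 ± 0.38, adjusted p = 0.0152). The first call ended without Ly6C-high replicate 1 (-1.23, adjusted p = 0.0650), without Ly6C-low replicate 2 (-1.39, 0.0983) or 3 (-1.39, 0.0994), and in a fit of the 6 microglia arrays alone (0.0646). The second ended without Ly6C-low replicate 2 (0.0609) or 3 (0.0611) and without monocyte replicate 2 (0.0535) or 3 (0.0576).

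Fasn (probe set 10393970) read 6.65, 6.67 and 6.50 in Ly6C-high microglia, 7.81, 7.94 and 7.87 in Ly6C-low microglia and 7.46 on each of the 3 monocyte arrays. The populations were fully separated, with Ly6C-high microglia lowest and Ly6C-low microglia highest. Fasn was 2.41-fold lower in Ly6C-high than in Ly6C-low microglia (-1.27 ± 0.09, adjusted p = 8.86e-05) and 1.81-fold lower than in monocytes (-0.86 ± 0.09, adjusted p = 4.87e-04), both under all 18 alternatives. The 3 monocyte values were identical to the last deposited digit, as in 246 of 34760 probe sets on these arrays, so the spread of Fasn in monocytes is 0 as deposited and enters its SE. Ly6C-low microglia exceeded monocytes by 0.41 ± 0.09 (1.33-fold, adjusted p = 0.0206), a call lost without Ly6C-low replicate 2 (0.0853) or 3 (0.0709), without any 1 monocyte array (0.0666 to 0.0770) and with an intensity trend and robust variances together (0.0884).

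Acaca, the acetyl-CoA carboxylase that makes malonyl-CoA, read 6.01, 6.22 and 6.18 in Ly6C-high microglia, 6.54, 6.78 and 6.78 in Ly6C-low microglia and 7.27, 7.44 and 6.85 in monocytes. No populations overlapped, in rising order of Ly6C-high microglia, Ly6C-low microglia and monocytes. Ly6C-high microglia were 2.07-fold lower than monocytes (-1.05 ± 0.16, adjusted p = 0.0028) under all 18 alternatives. The difference from Ly6C-low microglia lay at the threshold (-0.56 ± 0.16, adjusted p = 0.0498) and was lost in 13 of 18 alternatives, among them leaving out any 1 array other than monocyte replicate 2 or 3 (0.0581 to 0.163). A second and dimmer Acaca probe set passed in neither comparison (-0.27 ± 0.20 against monocytes and -0.01 ± 0.20 against Ly6C-low microglia).

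Elovl6, the elongase of palmitate, was low in both brain populations. It read 5.64, 5.53 and 5.41 in Ly6C-high microglia, 5.97, 5.47 and 5.51 in Ly6C-low microglia and 6.84, 6.53 and 6.54 in monocytes. The microglia arrays overlapped each other and all lay below the monocyte arrays. The differences from monocytes were -1.11 ± 0.16 in Ly6C-high microglia (2.15-fold lower, adjusted p = 0.0021) and -0.98 ± 0.16 in Ly6C-low microglia (1.98-fold lower, adjusted p = 0.0042), both under all 18 alternatives. As for Scd1, the microglia arrays lay under the median gene mean and were not shown to be above background, so these folds may be lower bounds.

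**Figure D3:**
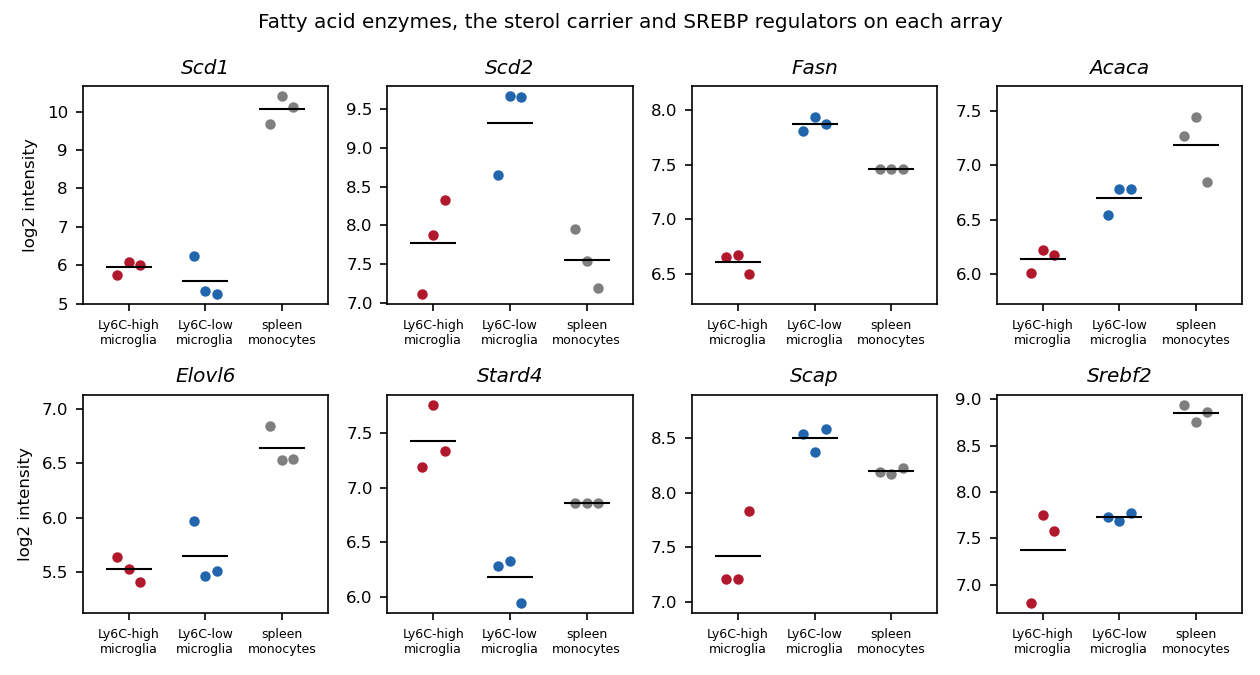
Log2 intensity (vertical axes, each with its own range) of 8 of the 28 genes in Ly6C-high microglia, Ly6C-low microglia and spleen monocytes; points are single arrays and bars the mean of 3. Scd1 is high in monocytes alone (9.67 to 10.41), Scd2 is highest in Ly6C-low microglia (8.65 to 9.67), and the 3 Fasn points of monocytes lie on one value (7.46).

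The genes around the pathway were read from further lists. Of 5 measured genes of sterol and isoprenoid synthesis outside the 28, 1 passed. Dhdds, a dehydrodolichyl diphosphate synthase subunit, was lower in Ly6C-high microglia than in monocytes (-1.09 ± 0.29, adjusted p = 0.0308). In that comparison 14.6% of all genes and 25.9% of the brighter genes were lower. Of 11 genes that process, degrade or partner SREBP, 5 were lower and none higher in Ly6C-high than in Ly6C-low microglia, where 11% of all genes were lower, 19.5% of the brighter genes were, and 4.49% of all genes were higher. Mbtps1, the site-1 protease that makes the first cut in SREBP, read 5.86, 6.45 and 6.12 in Ly6C-high microglia, 7.40, 7.69 and 7.44 in Ly6C-low microglia and 7.61, 7.64 and 7.25 in monocytes. It was lower in Ly6C-high microglia than in both others, by -1.37 ± 0.18 (adjusted p = 0.0013) and -1.36 ± 0.18 (adjusted p = 0.0012). Also lower in Ly6C-high than in Ly6C-low microglia were the NF-Y subunit Nfya (-1.17 ± 0.24), the nuclear receptor partner Rxra (-0.92 ± 0.20) and the ubiquitin ligase Rnf139 (-0.86 ± 0.16). Against monocytes 6 of the 11 were lower in Ly6C-high microglia (14.6% of all genes were, and 25.9% of the brighter genes) and 1, the oxysterol receptor Nr1h3 (-0.86 ± 0.15, adjusted p = 0.0055), in Ly6C-low microglia (7.71% of all genes were).

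Of 21 further fatty acid genes 7 were lower and 3 higher in Ly6C-high than in Ly6C-low microglia, against 11% and 4.49% of all genes. Acly, the citrate lyase that supplies cytosolic acetyl-CoA, read 7.21, 7.67 and 7.42 in Ly6C-high microglia, 8.61, 9.05 and 8.78 in Ly6C-low microglia and 8.28, 8.24 and 8.18 in monocytes. Its order of populations, with Ly6C-high microglia lowest and Ly6C-low microglia highest, was that of Fasn, and it was lower in Ly6C-high than in Ly6C-low microglia by -1.39 ± 0.15 (adjusted p = 5.44e-04). Fads1, a desaturase of polyunsaturated fatty acids, read 7.02, 7.20 and 7.17 in Ly6C-high microglia, 8.47, 9.33 and 9.23 in Ly6C-low microglia and 7.21, 7.33 and 6.77 in monocytes, highest in Ly6C-low microglia as Scd2 was. Acsl4, which activates arachidonate, was lower in Ly6C-high than in Ly6C-low microglia (-2.31 ± 0.16, adjusted p = 6.55e-05), and the elongase Elovl7 higher (2.01 ± 0.47, adjusted p = 0.0222). For both genes the lower population lay near or under the median gene mean of 6.13. It read 6.03 to 6.26 for Acsl4 and 4.70 to 6.51 for Elovl7, so these differences may be lower bounds. In Ly6C-low microglia against monocytes 4 of the 21 were higher (6.80% of all genes were), with Thrsp (2.45 ± 0.37), Fads1 (1.91 ± 0.24) and the carbohydrate-response factor Mlxipl (1.58 ± 0.13) the widest, and 2 were lower (7.71% of all genes were), with Elovl5 (-1.49 ± 0.21) the widest. In Ly6C-high microglia against monocytes 3 were higher and 3 lower, where 6.88% of all genes were higher and 14.6% lower.

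Of 17 genes of cholesterol uptake, storage, oxidation and export 8 were lower and 1 higher in Ly6C-high than in Ly6C-low microglia, against 11% and 4.49% of all genes. Abca1, the exporter of cholesterol to apolipoproteins, read 7.31, 7.46 and 8.07 in Ly6C-high microglia, 9.89, 10.12 and 10.12 in Ly6C-low microglia and 7.60, 8.36 and 7.42 in monocytes. Ly6C-low microglia stood alone at the high end, above Ly6C-high microglia (Ly6C-high minus Ly6C-low -2.43 ± 0.27, adjusted p = 6.00e-04) and above monocytes (2.26 ± 0.27, adjusted p = 8.15e-04). Also highest in Ly6C-low microglia in both comparisons were Mylip, which marks lipoprotein receptors for degradation (-2.45 ± 0.34 and 2.05 ± 0.34), the lysosomal cholesterol transporter Npc1 (-2.37 ± 0.35 and 1.47 ± 0.35), and the lipoprotein receptor Lrp1 (-2.83 ± 0.23 and 1.03 ± 0.23). Lrp1 read 9.71 on each of the 3 monocyte arrays to 2 decimals, and this SD of 0.00 enters its SE. Scarb1, a receptor of high-density lipoprotein, was lowest in Ly6C-low microglia, at 8.77, 9.72 and 9.09 in Ly6C-high microglia, 7.68, 7.74 and 7.72 in Ly6C-low microglia and 9.55, 9.30 and 9.46 in monocytes. In Ly6C-low microglia against monocytes 7 of the 17 were higher (6.80% of all genes were) and 1, Scarb1 (-1.72 ± 0.21), lower (7.71%). In Ly6C-high microglia against monocytes 4 were lower (14.6% of all genes were) and none higher (6.88%). Astrocytes and oligodendrocytes are known for strong sterol synthesis, and their markers were read in the same comparisons. Of 10 astrocyte genes 1 was higher and 2 were lower in Ly6C-high than in Ly6C-low microglia, where 4.49% and 11% of all genes were. The other 7, among them Gfap, Aqp4 and Aldoc, were not called. Gja1, the higher gene, read 8.58 to 8.75 on the Ly6C-high, 5.78 to 7.09 on the Ly6C-low and 6.36 to 6.60 on the monocyte arrays. Slc1a3, a lower gene, read 6.02 to 6.50, 8.12 to 8.41 and 5.23 to 6.00 in the same order of groups. Of the 8 measured oligodendrocyte genes 1 was lower in Ly6C-high than in Ly6C-low microglia, where 11% of all genes were, and 7 were not called. Against monocytes, 3 of the 10 astrocyte genes were higher in Ly6C-high microglia (6.88% of all genes were) and 2 in Ly6C-low microglia (6.80%). None of them was lower. Of the oligodendrocyte genes, 1 was lower in Ly6C-high microglia (14.6% of all genes were) and 1 higher in Ly6C-low microglia (6.80%). The part of these markers in the lipid genes' differences was not tested.

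**Figure D4:**
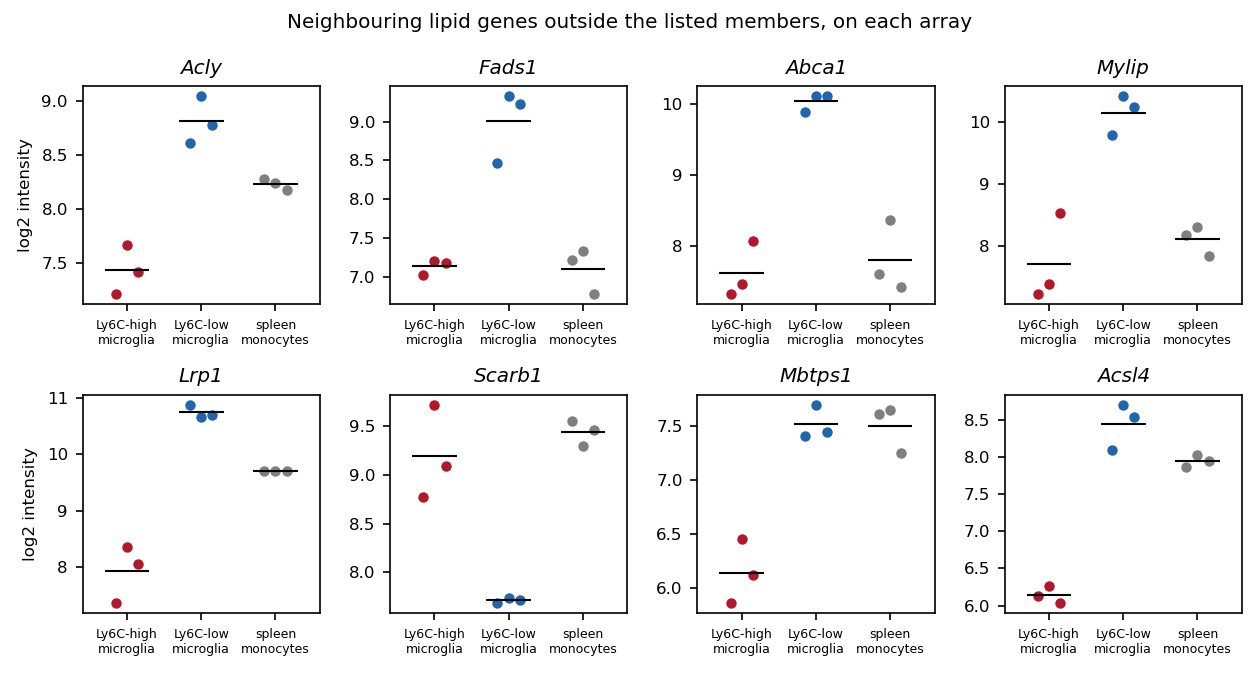
Log2 intensity (vertical axes, each with its own range) of 8 lipid genes outside the 28 in Ly6C-high microglia, Ly6C-low microglia and spleen monocytes; points are single arrays and bars the mean of 3. Abca1, Mylip, Fads1 and Lrp1 are highest in Ly6C-low microglia, and Scarb1 is lowest there (7.68 to 7.74).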

How the data were processed

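The deposited values are log2 intensities of 34760 probe sets on 9 whole-transcript Affymetrix arrays, 3 for each population, which the authors normalized together; RMA and oligo are named, without a version, in the submitters' processing notes. The array's genome build is not given in the sources used here. Probe sets were named from the platform annotation (21640 with 1 symbol, 1321 with several, 11799 with none; those with several were not used), and the brightest probe set over the 9 arrays stood for each of 19937 genes. Group means were fitted over all 9 arrays by lmFit and eBayes of limma (version 3.58.1, under R 4.3.3), with no block or pseudocount, and p-values were adjusted over all genes by Benjamini-Hochberg with a threshold of 0.05. The steps were tested on simulated data. Precision is limited by the 3 arrays of each group. The listed genes, and the further lists, were chosen with earlier results of these data known. Every listed gene is described by its values; from each further list and comparison, up to 4 genes with the largest differences among those past the threshold are named. 18 alternatives were tried: 9 that leave out an array, quantile normalization, median centring, leaving out dim genes, the mean of a gene's probe sets, fitting the 6 compared arrays alone, an intensity trend with robust variances, array weights and 2 replicate blocks. Promoter windows are RefSeq's, on build GRCm38.p6.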

Additional observations from a re-analysis of the deposited data

How the results depend on the processing

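Of 27 calls of the 28 genes, 14 were kept under all 18 alternatives, 13 were lost in at least 1, and none reversed; of the 57 differences not called, 17 were called in at least 1 alternative. Fitting only the 6 compared arrays gave, for Ly6C-high against Ly6C-low microglia, 1 higher gene of the list and 2038 genes called in all (2 and 3080 with all arrays), for Ly6C-high microglia against monocytes 0 higher genes (1 with all arrays), and for Ly6C-low microglia against monocytes 4 higher and 10 lower genes of the list and 4614 in all (2, 6 and 2894 with all arrays). Array weights gave 1 higher gene in the first comparison, and 13 lower genes of the list and 5738 in all in the third. An intensity trend with robust variances gave 1 higher gene in the third. Median centring gave 0 higher genes in the second.

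Leaving out 1 array in turn gave 1 to 2 higher and 2 to 5 lower genes of the list and 1956 to 3888 genes in all for Ly6C-high against Ly6C-low microglia, the lowest total without Ly6C-low replicate 3 and the next, 2011, without Ly6C-low replicate 2. For Ly6C-high microglia against monocytes it gave 0 to 1 higher and 8 to 14 lower genes and 2505 to 6091 in all, lowest without monocyte replicate 1 and, at 2511, without monocyte replicate 2. For Ly6C-low microglia against monocytes it gave 0 to 3 higher and 4 to 9 lower genes and 1864 to 3778 in all, lowest without monocyte replicate 1. Fewer arrays in the fit are part of the construction of these alternatives; otherwise the cause was not tested.

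Arrays with the same title number had deviations from their group means that correlated at -0.07 to 0.30. Such correlations cannot settle whether the numbers pair the arrays. A replicate block on the title numbers gave 2 higher and 3 lower genes of the list between the microglia populations and 2973 genes in all. The descriptions carry other numbers, of which Ly6C-high and Ly6C-low microglia share 2. Those arrays correlated at 0.30 and 0.21, the highest values of any arrays from different groups. A random replicate block on the description numbers gave 3939 genes in all between the microglia populations, against 3080 without it. It gave 0 higher genes of the list for Ly6C-high microglia against monocytes. Whether arrays with a shared description number are paired is not stated in the labels.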

Other observations

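Ch25h, the cholesterol hydroxylase that makes an oxysterol known to suppress SREBP processing, was singled out after its values were seen. It read 7.96 in Ly6C-high replicate 1 and 4.88 and 5.27 in Ly6C-high replicates 2 and 3, whereas the Ly6C-low arrays lay at 5.29 to 5.49 and the monocyte arrays at 4.96 to 5.21, and no difference passed (lowest adjusted p = 0.291). The same array was the lowest Ly6C-high array for 13 of the 28 genes, replicate 2 for 4 and replicate 3 for 11. How often each array was the lowest over all genes was not counted, and a link of these counts to Ch25h was not tested.

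Elovl5, which elongates polyunsaturated fatty acids, read 9.68, 10.41 and 10.29 in Ly6C-high microglia, 8.98, 9.36 and 9.41 in Ly6C-low microglia and 10.79, 10.88 and 10.54 in monocytes, so that Ly6C-low microglia were lowest with no overlap. Ly6C-high exceeded Ly6C-low microglia by 0.88 ± 0.21 SE (adjusted p = 0.0229). Mlxipl, the carbohydrate-response factor that acts on Fasn and Acaca in liver, read 7.22, 6.92 and 6.92 in Ly6C-high microglia, 8.0, 7.70 and 7.91 in Ly6C-low microglia and 6.28, 6.40 and 6.17 in monocytes. It was lower in Ly6C-high than in Ly6C-low microglia (-0.85 ± 0.13, adjusted p = 0.0029) and higher than in monocytes (0.73 ± 0.13, adjusted p = 0.0057), an order that Fasn does not share, since Fasn was lower in Ly6C-high microglia than in monocytes. Whether Mlxipl acts on Fasn in these cells was not tested.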
